A study of Mus musculus with 10 samples.

Results

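The genes examined here encode the large scaffold proteins of the presynaptic active zone: Bsn, Pclo, Rims1, Rims2, Rimbp2, Unc13a, Unc13c, Erc1, Erc2 and Ppfia2. They were chosen by name, each name was matched to the Ensembl identifier of its row, and all 10 were found among the 56884 rows of the count table and among the 17622 genes with enough counts to be tested. Hippocampal RNA came from 10 ovary-intact female P301S mice of the PS19 line, in which the mouse Prnp promoter drives human 1N4R Tau carrying the P301S mutation. All mice of both groups carried this transgene. At 6 months of age, 5 mice received a SILASTIC implant packed over 10 mm with dihydrotestosterone (DHT), an androgen that aromatase cannot turn into estrogen, and 5 received an empty implant (void). Hippocampi were taken after 12 weeks, at 9 to 9.5 months, and 1 mRNA library was made from each mouse. Littermates were randomized to treatment and were then housed by treatment group, so treatment cannot be told apart from housing. The number after S in the sample titles is lower for every void mouse than for every DHT mouse. The labels do not say what this number records. If it is a library order, treatment cannot be told apart from that order either.

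The active zone is the patch of presynaptic membrane where synaptic vesicles dock, are made ready and fuse. Bassoon and Piccolo are giant proteins that span this zone and hold vesicles near it. RIM proteins bind vesicles through Rab3, recruit Munc13 and, together with RIM-binding proteins, tether calcium channels. Munc13 proteins prime vesicles for fusion. ELKS/CAST proteins (Erc1 and Erc2) and liprins-α (Ppfia genes) tie these parts together. The proteins work at the axon terminal, while their mRNAs are mostly made and kept in the cell body. The neuronal part of a count from dissected hippocampus thus mostly reflects neurons whose cell bodies lie in it.

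The start of a gene is where a nuclear receptor or other factor could bind, and the promoters of these genes were searched for 3 short motifs on both strands. These were AGGTCA, the half-site of many nuclear receptors, AGAACA, a half-site of the androgen receptor, and TGACGTCA, the cAMP response element. RefSeq promoter sequences of build GRCm38.p6, from 250 bases before to 50 after each start, were given for 9 of the 10 genes, and there was none for Rims2. AGGTCA was found in 1 of the 9, that of Erc2, against 16.3% of 32851 promoters. AGAACA was found in 0 of 9, against 19% of all promoters, and TGACGTCA in 0 of 9, against 1.79%. The 250 bases upstream of the start are printed for Erc2, since it holds the match, at chr14:27622157-27622406 on the plus strand, and for Rims1, the gene with the lowest adjusted p among those with an entry, at chr1:22806159-22806408 on the minus strand. Both are written 5′ to 3′, and the capitals mark the AGGTCA match.
Erc2: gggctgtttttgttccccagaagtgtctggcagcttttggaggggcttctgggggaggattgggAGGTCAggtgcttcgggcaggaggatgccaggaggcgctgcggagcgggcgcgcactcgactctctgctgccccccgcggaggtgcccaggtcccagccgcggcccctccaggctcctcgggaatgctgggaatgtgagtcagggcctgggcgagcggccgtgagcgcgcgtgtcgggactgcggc
Rims1: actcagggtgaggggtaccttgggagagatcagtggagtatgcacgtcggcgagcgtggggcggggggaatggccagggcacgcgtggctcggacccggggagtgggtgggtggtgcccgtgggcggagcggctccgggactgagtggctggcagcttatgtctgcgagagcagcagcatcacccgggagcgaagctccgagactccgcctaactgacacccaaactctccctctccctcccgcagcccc
The match in Erc2 begins 186 bases before the start, and a match of letters is a description of the sequence only.

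Levels are given in CPM, which are counts scaled by TMM to a common library size, and differences as log2 fold changes, DHT minus void. Tests were edgeR's quasi-likelihood fits, with p values adjusted by Benjamini-Hochberg over the 17622 genes. A gene was called at an adjusted p under 0.05. Total counts ranged from 27188854 to 47113661 with void and from 33523527 to 45947784 with DHT, and each of the 10 genes had between 852 and 33651 counts in every library. Markers of dentate granule cells, of CA1 and of CA2 and CA3 were all detected, with 0 of 4, 0 of 4 and 0 of 6 genes at 0 in every library. The same held for thalamus, striatum and choroid plexus markers, so detection does not show which regions the tissue held. Levels between genes were compared as RPKM, that is CPM per kilobase of exon. In void mice the order was Bsn at 44.8 ± 8.82 (SD, n = 5), Rims1 at 42.3 ± 1.40, Pclo at 31.6 ± 5.2, Unc13a at 30.8 ± 2.34 and Erc2 at 30.6 ± 2.05. Below these came Ppfia2 at 23.4 ± 1.97, Rimbp2 at 22.9 ± 1.28, Rims2 at 13.3 ± 0.635, Erc1 at 6.39 ± 0.555 and Unc13c at 4.93 ± 1.17. Bsn and Rims1, then Pclo, Unc13a and Erc2, and then Ppfia2 and Rimbp2 lay closer to their neighbour than the larger SD of the pair. In DHT mice the order was the same except that Unc13a, at 28.5, stood just above Pclo, at 28.4.

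None of the 10 scaffold genes was called as changed by DHT, and all 10 had a negative log2 fold change, from -0.36 (Unc13c) to -0.08 (Bsn) with a median of -0.13. Among all genes tested the median was 0.01 and 47.6% had a negative fold change. Of the 17622 genes, 0.261% were called lower and 5.22% were called higher. At an unadjusted p under 0.05, 3 of the 10 (Rims2, Rims1 and Unc13c) were lower and 0 were higher, beside 4.22% lower and 13.1% higher among all genes. DESeq2 called 2 of the 10 lower, Rims1 and Rims2, beside 1.51% of genes called lower and 6.73% called higher by that tool, and limma-voom called 0. In 0 of the 10 genes did every DHT mouse lie below every void mouse, which happened for 0.88% of all genes, or above, which happened for 5.39%. The 10 genes together took between 0.267% and 0.334% of a library's counts. In tissue of mixed cells, fewer neurons, less of these mRNAs per neuron and a larger share of RNA from other cells cannot be told apart.

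**Figure D1:**
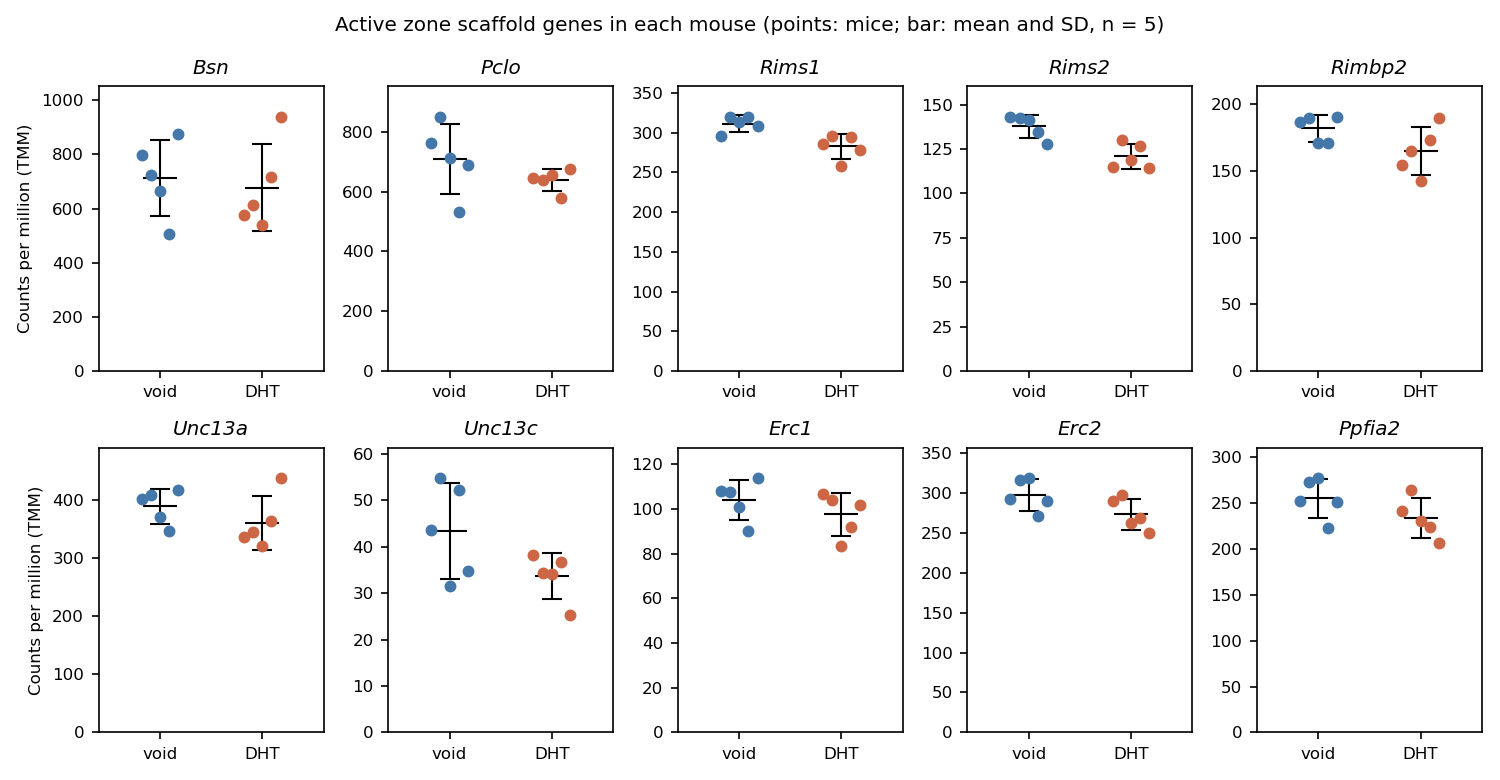
Normalized CPM (y axis, from 0) of each scaffold gene in the 5 void (blue) and 5 DHT (orange) mice, with bars for mean and SD. The groups overlap in every gene; in Rims1 and Rims2, 4 of the 5 DHT mice lie below the lowest void mouse, while Bsn spans 506 to 940.1 CPM over the mice of both groups.

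Bsn and Pclo, the giant scaffolds, varied widely between mice, Bsn in both groups and Pclo in the void group. Bsn was at 799, 725, 665, 506 and 876 CPM in void replicates 10, 11, 4, 5 and 9, and at 574, 614, 540.1, 717 and 940.1 in DHT replicates 1, 2, 3, 5 and 6. The lowest mouse was a void mouse and the highest a DHT mouse, and 4 of 5 DHT mice lay below the void median. The group means were 714 ± 141 and 677 ± 161 (SD, n = 5 each). The log2 fold change of -0.08 (SE 0.17) had a 95% interval from -0.44 to 0.28 (edgeR adjusted p = 0.885). Without void replicate 9, which had the highest Bsn level of its group, the log2 fold change was 0.0063. Pclo, at 762, 851, 711, 533 and 688 CPM with void, was at 646, 639, 654, 579 and 675 with DHT. All 5 DHT mice lay below the void median but above the lowest void mouse, replicate 5, and the SD was 117 with void and 36.1 with DHT. The log2 fold change of Pclo was -0.15 (SE 0.10; 95% interval -0.38 to 0.07; edgeR adjusted p = 0.526).

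The RIM genes had the smallest spread and the lowest p values of the 10. Rims1, the main vesicle-tethering RIM of forebrain synapses, was at 295, 320.2, 313, 320.4 and 309 CPM with void and at 285, 296, 259, 294 and 279 with DHT. Only DHT replicate 2 reached above the lowest void mouse, replicate 10. Its means of 312 ± 10.3 and 283 ± 15.2 (SD, n = 5 each) differed by a log2 fold change of -0.14 (SE 0.05; 95% interval -0.25 to -0.03), or -9.28%, with an edgeR adjusted p of 0.167. Rims2, its close paralog, was at 143, 142, 141, 135 and 128 CPM with void and at 115, 130.2, 119, 126 and 114 with DHT. Again only DHT replicate 2 lay above the lowest void mouse, here replicate 9. The log2 fold change of Rims2 was -0.19 (SE 0.06; 95% interval -0.31 to -0.07), or -12.2%, and its edgeR adjusted p of 0.0810 was the lowest of the 10 genes. With DESeq2 the log2 fold changes were -0.17 (adjusted p = 0.0341) for Rims1 and -0.22 (adjusted p = 0.0116) for Rims2. When each mouse was left out in turn, the edgeR log2 fold change stayed between -0.19 and -0.13 for Rims1 and between -0.24 and -0.17 for Rims2.

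Rimbp2 encodes the main RIM-binding protein that links RIM to calcium channels. It was at 187, 189.9, 171, 171 and 191 CPM with void and at 154, 165, 143, 173 and 189.6 with DHT. In this gene 3 of 5 DHT mice lay below the lowest void mouse and DHT replicate 6 lay near the highest. The log2 fold change was -0.14 (SE 0.08; edgeR adjusted p = 0.384). With offsets for GC content and exon length, an alternative added after the values were seen, it was -0.17 (SE 0.05) with an edgeR adjusted p of 0.0402, the lone call among the 10 genes in that fit. With these offsets 1.66% of all genes were called lower and 7.22% higher.

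Of the Munc13 genes, Unc13a (Munc13-1, the main priming factor of excitatory forebrain synapses) was at 401, 407, 371, 345 and 417 CPM with void and at 335, 345, 319, 363 and 437 with DHT. Its highest and its lowest mouse were both DHT mice, replicates 6 and 3, and the log2 fold change was -0.11 (SE 0.09; edgeR adjusted p = 0.599). Unc13c (Munc13-3, best known from cerebellum) had the lowest level. It was at 43.6, 54.8, 31.5, 52.3 and 34.8 CPM with void and at 38.2, 34.3, 34.2, 36.7 and 25.4 with DHT. Void replicates 11 and 5 lay above all other mice and DHT replicate 6 below all others, while the remaining 7 mice lay between 31.5 and 43.6. The log2 fold change was -0.36 (SE 0.16; 95% interval -0.71 to -0.02), the largest in size of the 10, with an edgeR adjusted p of 0.261. With the mean z-score of 12 choroid plexus markers in each library as a covariate, the log2 fold change was 0.17 (SE 0.19; edgeR adjusted p = 0.946). That covariate is hard to separate from treatment, and no gene was called in either direction in that fit.

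The ELKS/CAST genes and Ppfia2 had estimates closer to 0 than the median of the 10. Erc1 was at 108, 107, 101, 90.1 and 114 CPM with void and at 107, 104, 83.3, 92.1 and 102 with DHT, a log2 fold change of -0.09 (SE 0.08; edgeR adjusted p = 0.642). Erc2, whose protein CAST is largely restricted to neurons, was at 293, 316, 318, 271 and 289.6 CPM with void. In DHT mice it was at 289.7, 297, 262, 268 and 249.98, with 3 of 5 below the lowest void mouse. Its log2 fold change was -0.12 (SE 0.07; edgeR adjusted p = 0.382). Ppfia2, which encodes liprin-α2, was at 252, 273, 277, 223 and 251 CPM with void and at 242, 265, 231, 224 and 207 with DHT. Only DHT replicate 6 lay below the lowest void mouse, and the log2 fold change was -0.13 (SE 0.08; edgeR adjusted p = 0.455).

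**Figure D2:**
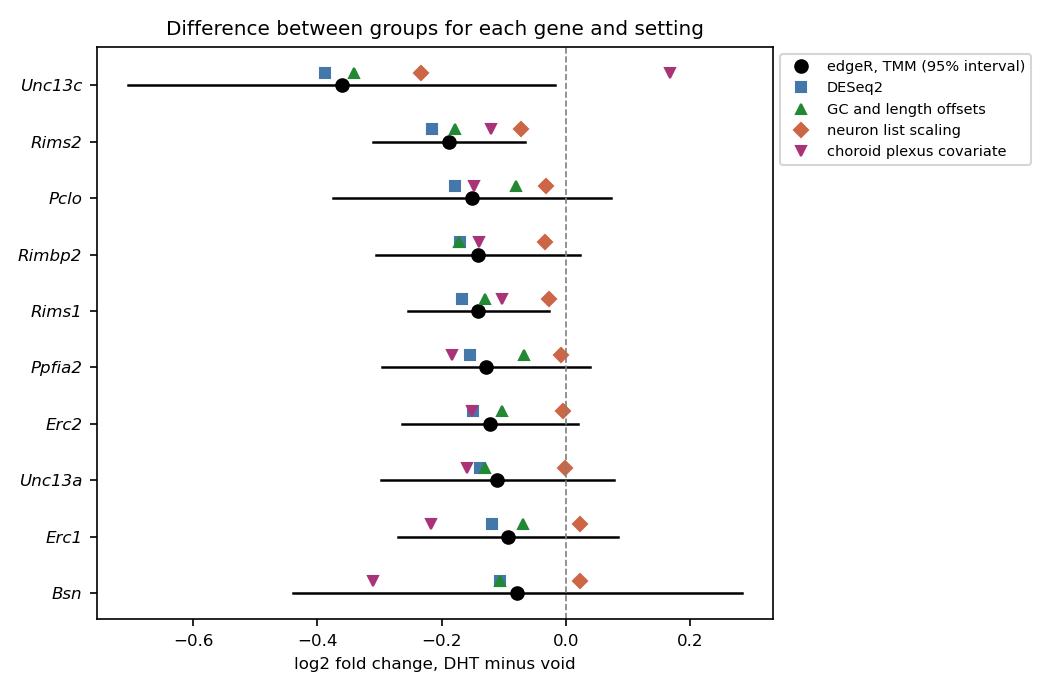
Log2 fold change, DHT minus void (x axis), of each scaffold gene (rows). Black points with 95% intervals are the edgeR values, and coloured points give the same quantity from DESeq2, with GC and length offsets, with scaling on 17 neuron genes, and with a choroid plexus covariate. The intervals of Rims1, Rims2 and Unc13c lie below 0, and scaling on the neuron genes moves all 10 points to the right.

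The balance within each family was compared as a log2 ratio of 2 family members in the same mouse, which does not depend on how libraries were scaled. It can still depend on the differences between libraries by GC content that are described below. Bsn to Pclo was at 0.0030 ± 0.22 in the void group and 0.06 ± 0.32 in the DHT group (SD over 5 mice). Rims1 to Rims2 was at 1.18 ± 0.09 and 1.22 ± 0.08, and Erc1 to Erc2 at -1.52 ± 0.12 and -1.49 ± 0.13. Unc13a to Unc13c was at 3.19 ± 0.39 and 3.42 ± 0.39, with DHT replicate 6 at 4.10 and the other 4 DHT mice between 3.13 and 3.33. None of the 4 differences, 0.05, 0.05, 0.03 and 0.23 in that order of Bsn, Rims1, Erc1 and Unc13a, exceeded the spread between mice. In two-sided exact permutation tests p was 0.794, 0.397, 0.738 and 0.381, adjusted over the 4 pairs to 0.794 for each, and the smallest p that this design allows is 0.00794.

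**Figure D3:**
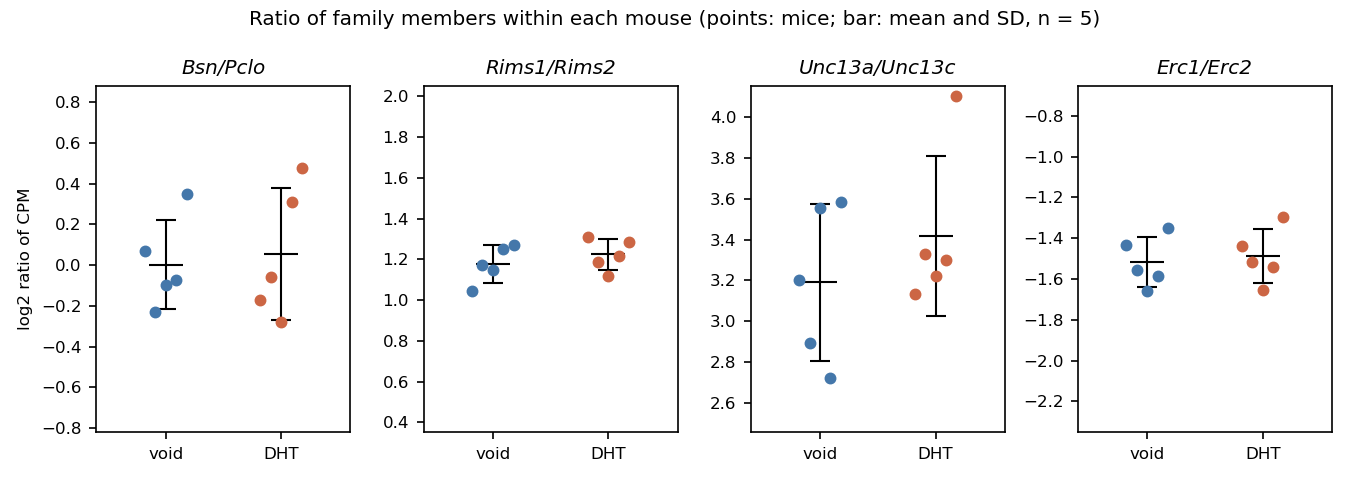
Log2 ratio of CPM of 2 members of a family in each void (blue) and DHT (orange) mouse, with mean and SD bars; the y axes cover different ranges. The groups overlap in all 4 pairs, and DHT replicate 6 stands alone at 4.10 in Unc13a to Unc13c.

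Libraries differed in the level of GC-rich against GC-poor transcripts, and the scaffold genes followed this to unequal degrees. For each library, the mean log2 level of the 10th of genes with the highest GC content was set against that of the 10th with the lowest. This gap was highest in DHT replicate 6 (0.81), DHT replicate 5 (0.57) and void replicate 9 (0.49), and lay between -0.16 and 0.20 in the other 7 libraries. The log2 ratio of Bsn to Pclo was highest in the same libraries, at 0.48, 0.31 and 0.35 in that order. The ratios within families were not computed with GC offsets. Bsn has the most GC-rich exons of the 10 (59.8%), and its 2 highest mice were DHT replicate 6 and void replicate 9. Unc13a (55.1%) had the same 2 mice at the top in the same order, and Rimbp2 (53.5%) had void replicate 9 at the top with void replicate 11 and DHT replicate 6 next. Of the genes with lower GC content, Ppfia2 (40.7%), Unc13c (45.4%), Erc2 (46.5%) and Rims2 (48.9%) had their lowest mouse in DHT replicate 6. Rims1 (47.4%) had it in DHT replicate 3. Pclo (45.5%) went another way, since its lowest mouse was void replicate 5, and DHT replicate 6 was its highest DHT mouse. With GC and length offsets the SE of Bsn fell from 0.17 to 0.07, with a log2 fold change of -0.11, and that of Unc13a fell from 0.09 to 0.04, with a log2 fold change of -0.13 and an edgeR adjusted p of 0.0646. The SE also fell for Rimbp2 (0.08 to 0.05), Pclo (0.10 to 0.08), Erc1 (0.08 to 0.06), Erc2 (0.07 to 0.05) and Ppfia2 (0.08 to 0.06). It hardly moved for Rims1 (0.0520 to 0.0492), Rims2 (0.0563 to 0.0531) and Unc13c (0.158 to 0.156).

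**Figure D4:**
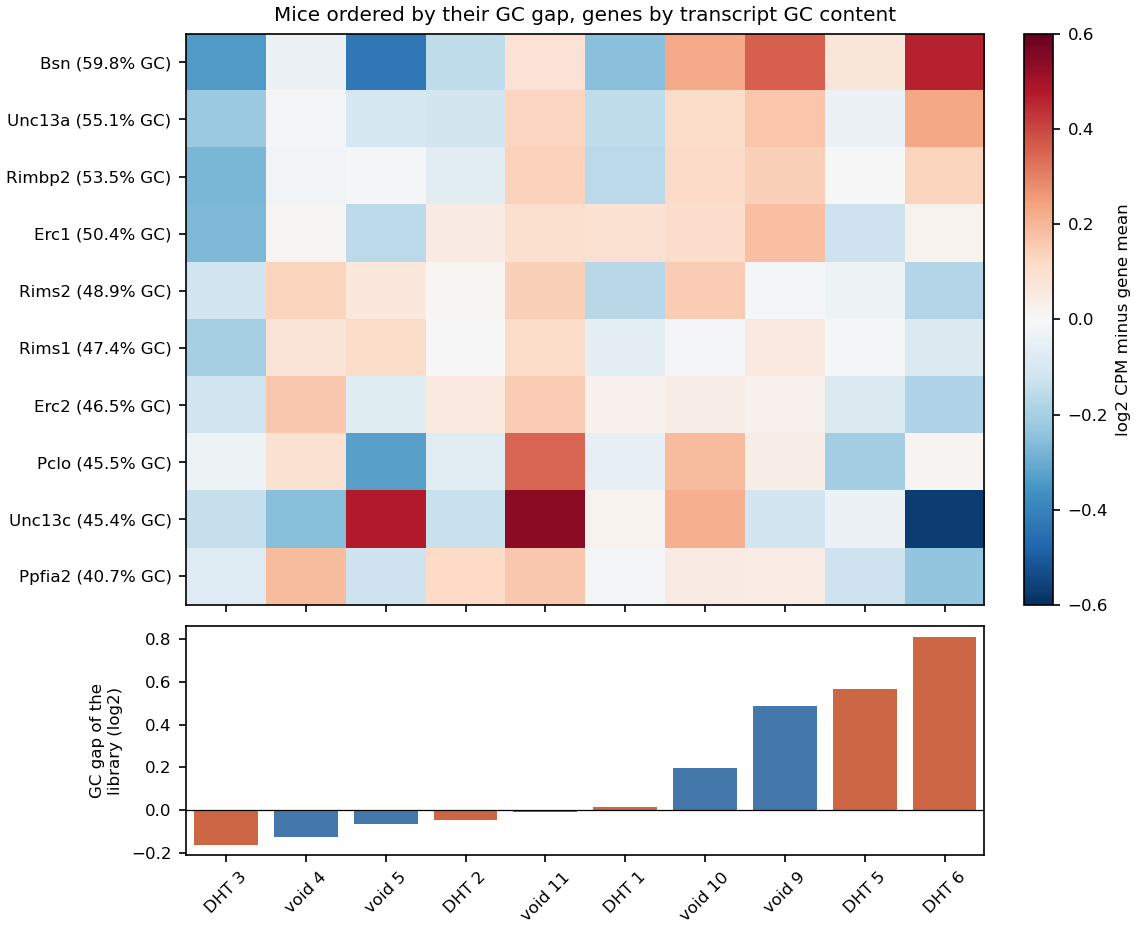
Upper panel: log2 CPM minus the gene's mean over all 10 mice (colour), for the scaffold genes ordered by GC content and the mice ordered by the GC gap of their library. Lower panel: that gap (log2), with void in blue and DHT in orange. Bsn, the top row, is highest in DHT replicate 6, the library with the largest gap of 0.81, where Unc13c and Ppfia2 are lowest.

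The exons of all 10 genes are long, from 7362 bases (Rims1) to 22457 (Pclo), at the 81.1 to 99.6 percentile of the genes tested, and their GC content ran from the 7.92 (Ppfia2) to the 94.7 percentile (Bsn). In the 10th of genes with the longest exons, which holds 7 of the 10, 64.9% of genes had a negative log2 fold change and the median was -0.05. In the 10th with the shortest exons 39.9% were negative and the median was 0.06. In the 10th with the lowest GC content, 64.8% were negative, against 31.8% in the highest. The medians of all 10ths by length or by GC content lay between -0.06 and 0.07. With the offsets the scaffold median was -0.12, with 10 of 10 negative, and the median of all genes was -0.01. Relative to the median of all genes, the scaffold median was -0.10 with the offsets and -0.14 without them.

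Across the 10 mice the log2 levels of the scaffold genes were positively correlated in 41 of 45 pairs, with a median Pearson r of 0.42. After the group means were removed, 28 of 45 were positive and the median was 0.25. The highest values within groups were those of Erc2 with Ppfia2 (0.96), Bsn with Unc13a (0.96), Unc13a with Rimbp2 (0.94) and Bsn with Rimbp2 (0.88). The lowest was that of Bsn with Unc13c (-0.56). These points share libraries, depth and the GC gap above, and are given as a description. By mean z-score over the 10 genes, void replicate 11 was highest (1.11) and DHT replicate 3 lowest (-1.16). Among the genes most like this mean over the 10 libraries were Celf1 (Pearson r = 0.948), 5330417C22Rik (0.944), Kif26b (0.929), Gpr158 (0.926), D430019H16Rik (0.924), Ppp1r10 (0.922), Mapk10 (0.919), Celf2 (0.912) and Prickle1 (0.911). Each of these had a negative log2 fold change. The choice itself favours this sign, since r was taken over both groups and the 10 scaffold genes had negative fold changes. Of the genes named as most like the mean, edgeR called 1 lower, 5330417C22Rik at -0.23 (adjusted p = 0.0497), beside 0.261% of all genes called lower. Most like Rims2 alone were Ica1l (0.958), Gm49685 (0.956) and Ppargc1a (0.95). Ica1l was also called lower by edgeR, at -0.22 (adjusted p = 0.0464), while Gm49685 and Ppargc1a were not called. This choice too favours a negative sign, as Rims2 had a negative fold change.

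Among 11 other genes of the same families, 6 had a negative and 5 a positive log2 fold change, with a median of -0.04, and 1 passed the test. This was Ppfibp2, a liprin-β gene, which rose with DHT. It was at 15.3, 9.83, 12.5, 11.6 and 17.2 CPM with void and at 27.8, 20.8, 19.8, 16.8 and 19.98 with DHT, where only DHT replicate 5 lay below the highest void mouse. The log2 fold change was 0.67 (SE 0.16; edgeR adjusted p = 0.0336), beside 5.22% of all genes called higher. The call did not hold in 8 of the 10 fits that left out 1 mouse (edgeR adjusted p from 0.0117 to 0.104 over the 10, with log2 fold changes from 0.51 to 0.78), and held without void replicate 9 and without DHT replicate 5. With the choroid plexus covariate the log2 fold change was 0.19 (SE 0.20; edgeR adjusted p = 0.944). No gene at all was called in that fit, and the covariate and treatment are hard to separate. The highest Ppfibp2 level was in DHT replicate 1. This library also had the highest summed choroid plexus markers, 5744 CPM, and the highest summed microglia markers, 877 CPM. Which cells the Ppfibp2 reads came from was not tested. The 2 remaining RIM genes, Rims3 and Rims4, encode short RIMs that lack the Rab3- and Munc13-binding part. Rims3 was at 101, 81.1, 79.9, 109 and 87.2 CPM with void and at 69.7, 75.5, 61.9, 87.7 and 74.8 with DHT. Rims4 was at 72.2, 69.1, 67.2, 80.2 and 75.3 CPM with void and at 50.8, 62.6, 55.7, 68.2 and 62.2 with DHT. In both, 4 of 5 DHT mice lay below the lowest void mouse, as in Rims1 and Rims2. Their log2 fold changes were -0.31 (SE 0.11; edgeR adjusted p = 0.132) and -0.28 (SE 0.08; edgeR adjusted p = 0.0720). DESeq2 called Rims3 and Rims4 lower as well, at -0.34 (adjusted p = 0.0382) and -0.31 (adjusted p = 0.00631). DESeq2 thus called 4 of 4 RIM genes lower, beside 1.51% of all genes by that tool, and edgeR and limma-voom called 0 of 4. Tspoap1, which encodes another RIM-binding protein, had a log2 fold change of -0.11 (SE 0.10), Ppfia1 (liprin-α1) one of 0.08 (SE 0.06) and Unc13d (Munc13-4, known from granule secretion in immune cells) one of 0.22 (SE 0.22).

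Among 22 partners of the active zone, 16 had a negative and 6 a positive log2 fold change, with a median of -0.03, and edgeR called 0. At an unadjusted p under 0.05, 3 were lower and 1 was higher, beside 4.22% and 13.1% of all genes. DESeq2 called Lin7a lower and Syde1 higher, beside 1.51% and 6.73% of all genes. Lin7a, an adaptor that binds Cask, was at 27.05, 33.2, 36.3, 34.7 and 29.8 CPM with void and at 21.1, 29.5, 28.4, 25.0 and 25.7 with DHT, a log2 fold change of -0.31 (SE 0.10; edgeR adjusted p = 0.116). Rab3c, a vesicle GTPase to which RIM can bind, was at 699, 766, 786, 842 and 731 CPM with void and at 567, 738, 714, 668 and 636 with DHT, a log2 fold change of -0.20 (SE 0.08; edgeR adjusted p = 0.184). Cacnb4, a calcium channel β subunit, had a log2 fold change of -0.26 (SE 0.10; edgeR adjusted p = 0.200). In the other direction, Syde1, which encodes a GTPase-activating protein, was at 9.70, 8.30, 8.08, 9.97 and 10.7 CPM with void and at 13.6, 10.7, 11.4, 12.2 and 12.7 with DHT. Only DHT replicate 2 lay below the highest void mouse, and the log2 fold change was 0.37 (SE 0.10; edgeR adjusted p = 0.0579). Git2 and Ctbp2, next by p value among partners with a positive estimate, had log2 fold changes of 0.11 (SE 0.07) and 0.12 (SE 0.07).

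**Figure D5:**
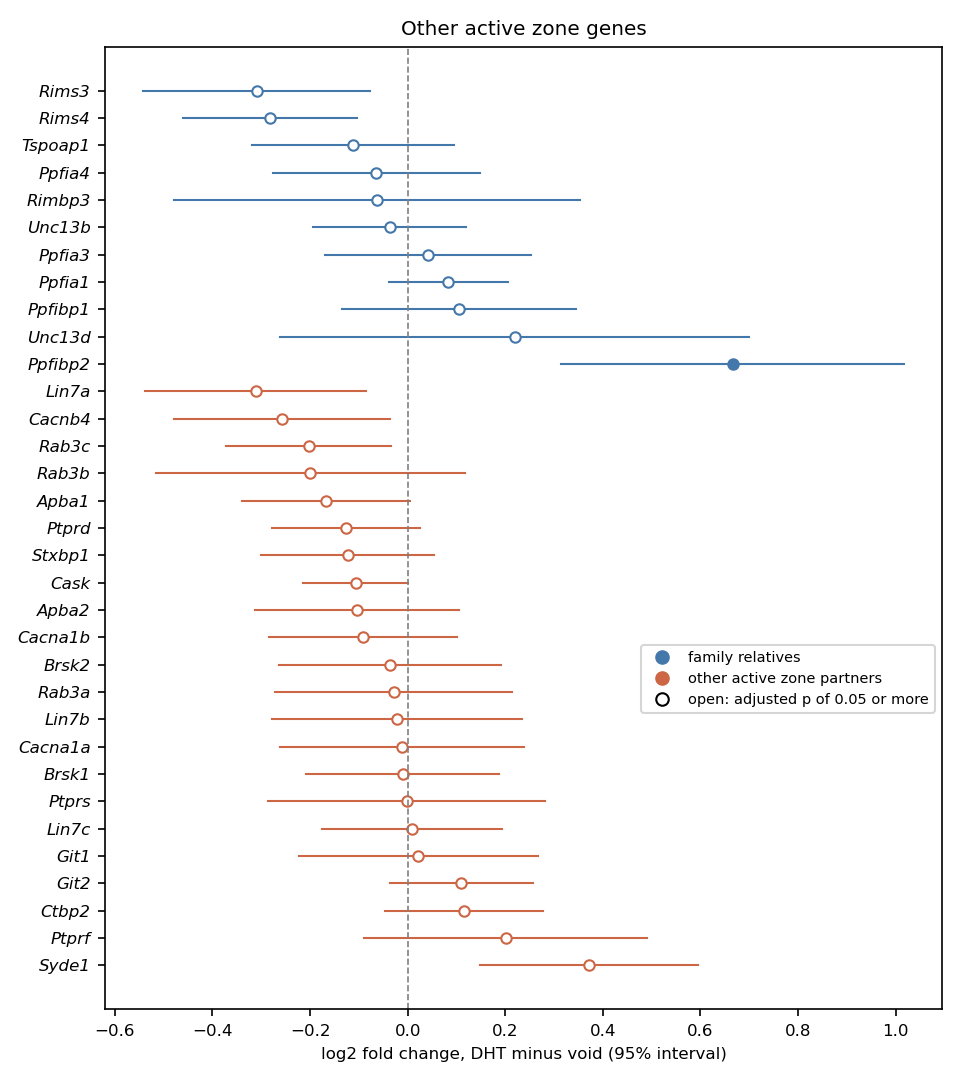
Log2 fold change, DHT minus void, with 95% interval (x axis), of 11 other genes of the scaffold families (blue) and 22 active zone partners (orange); a filled point has an edgeR adjusted p under 0.05. Only Ppfibp2, at 0.67, is filled, and Rims3, Rims4 and Lin7a have the lowest values.

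Of the cell type markers, the summed levels of choroid plexus and microglia did not overlap between the groups, and those of the other lists did. The part of cell types in the values above was not tested except through the alternatives named. Of 17 neuron markers, 16 had a negative log2 fold change and 0 were called, with a median of -0.09 and a summed level of 9370 to 10445 CPM with void and 8238 to 10912 with DHT. Of 12 choroid plexus markers, all were positive and 4 were called higher, with summed levels of 360.2 to 3273 CPM with void and 3911 to 5744 with DHT. Ttr, the most abundant of them, was at 329, 62.5, 670.1, 65.1 and 1335 CPM with void and between 1289 and 1728 with DHT. Of 8 microglia markers, all were positive and 6 were called, with summed levels of 418 to 491 CPM with void and 594 to 877 with DHT. None of these markers was at 0 in every library. Dentate granule markers had a median of -0.14 over 4 genes, CA1 markers -0.08 over 4, and CA2 and CA3 markers 0.09 over 6, with 0 called in each. Thalamus markers had a median of -0.10 over 6 genes and interneuron markers -0.10 over 5, with 0 called, and striatum markers -0.06 over 6, with 1 called higher. Astrocyte markers had a median of 0.12 over 5 genes, oligodendrocyte markers 0.19 over 5 and endothelium markers -0.06 over 3, with 0 called in each. Of 8 RNAs that stay in the nucleus, 7 were negative and 0 were called, with a median of -0.22. When libraries were scaled on the neuron markers, the median of all genes moved to 0.13 and that of the scaffold genes to -0.02, with 8 of 10 still negative. Relative to the median of all genes, the scaffold median was -0.14 under both scalings, as a change of scaling shifts all genes nearly alike.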

How the data were processed

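Bulk RNA-seq of hippocampus was analysed for 10 mice, 5 void and 5 DHT, grouped by the sample labels. The authors deposited raw read counts per gene, without normalization: reads were trimmed and filtered with HTStream and aligned with STAR (version 2.7.10b in the submitters' processing notes). The paper names build mm10 and the notes name mm39, so no coordinates were joined to the counts. Annotation release, strand setting and the handling of reads that match several genes are not given in the sources used here. Symbols, exon lengths and GC content came from GENCODE M21, with a symbol for 51948 of 56884 rows and lengths for 17282 of 17622 genes tested. Promoters came from RefSeq.

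The fits used edgeR 4.0.16 (R 4.3.3), with TMM scaling and its expression filter by group, and p values were adjusted by Benjamini-Hochberg. DESeq2 1.42.0 and limma-voom (limma 3.58.1) were alternatives. An SE was taken from the F statistic as the size of the log2 fold change over the root of F. Log2 CPM used a prior count of 2. Tests were checked on simulated counts with set changes larger than any estimate for the scaffold genes, and without the GC gap. That check does not cover changes as small as those of the scaffold genes. No pair of libraries agreed within sampling noise (lowest chi-square per gene 9.68).

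The 10 genes, the lists of relatives, partners and markers, and the alternatives were chosen with earlier results of these data known. Named beside the 10 genes are, in the lists of relatives and partners, every gene called and the 3 with the lowest p in each direction, and the 10 genes most like the mean of the 10, with 3 most like the gene with the lowest p. The result for 1 gene under this rule is not reported here. GC and length offsets and an unadjusted threshold were added after seeing the values of this fit. Nothing in the labels says how mice shared litters across libraries. The tests treated the mice as independent, and p values may be off where mice shared a litter.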

Additional observations from a re-analysis of the deposited data

Results flagged for a closer look

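The log2 ratio of Unc13a to Unc13c in DHT mice had its highest sample, DHT replicate 6, far from the others: its gap to the next mouse was 0.796 of the range of the group, above the limit of 0.71 for 5 samples. This mouse was at 4.10, and the other DHT mice lay between 3.13 and 3.33. The same library had the highest Unc13a and the lowest Unc13c level of all 10 mice, and the largest GC gap (0.81). In all, 28 groups of values were examined in this way and 1 stood out, where chance alone gives about 1 in 20, or 1.4 here.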

How the results depend on the processing

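No paired analysis was possible because the labels do not say which void and DHT mice were littermates. Of 46 genes called lower, 4 passed a log2 fold change beyond 1. The count was 266 with DESeq2, 6 with scaling on neuron markers, 0 with a choroid plexus covariate and 287 with GC and length offsets, and leaving out 1 mouse gave 5 (without void replicate 11) to 77 (without DHT replicate 2). Of 920 called higher, 382 passed the fold limit. The count was 1669 with neuron scaling and 0 with the covariate, and leaving out 1 mouse gave 351 to 1072. Scaffold genes called were 0 with edgeR and whichever mouse was left out, 3 at an unadjusted p, 2 with DESeq2 and 1 with the offsets. Relatives and partners called were 1, against 5 with DESeq2, 2 with RLE size factors, library size alone or neuron scaling, 0 with the covariate, 3 with the offsets and 0 to 2 leaving out 1 mouse. The scaffold median was -0.13, against -0.0172 with neuron scaling and -0.18 to -0.13 leaving out 1 mouse. Relative to the median of all genes it was -0.14, also with neuron scaling. With the offsets this relative value was -0.10, and leaving out 1 mouse gave -0.18 to -0.11. Signs turned for Bsn (0.0234) and Erc1 (0.0234) with neuron scaling, for Unc13c (0.17) with the covariate and for Bsn without void replicate 9 (leaving out 1 mouse, -0.22 to 0.0063). The Bsn to Pclo difference ran from -0.0524 to 0.14 and that of Erc1 to Erc2 from -0.0199 to 0.0705 leaving out 1 mouse. Over the 10 scaffold genes and 19 alternatives each, 183 values kept sign and side of the threshold, 3 newly passed it and 4 changed sign. Summed choroid plexus markers did not overlap between the groups. The covariate was the mean z-score of the same markers, so it and treatment are hard to separate. The cause of these shifts was not tested.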
